A study of Mus musculus with 9 samples.

Results

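The comparison described here sets NIH-3T3 cells given a miR-378 mimic directly against NIH-3T3 cells given a miR-378 inhibitor. It uses 6 of the 9 arrays of the study, 3 per treatment, and was made over all genes that had a probe set of their own and a level above a filter, 11963 of 19938. The remaining 3 arrays hold cells given RISC-free siRNA, the control RNA, and served only to place each gene between the other two groups. NIH-3T3 cells are immortal fibroblasts derived from mouse embryos. All cells, controls included, were transfected with 25 nM RNA through the lipid reagent DharmaFECT 1, and total RNA was taken 48 hours later for whole-transcript Affymetrix arrays. The study used 1 cell line, 1 dose and 1 time, and had neither untransfected cells nor a mimic or inhibitor of another sequence among the samples used here. Effects of miR-378-3p and other effects of the transfected RNAs thus cannot be told apart. The labels speak of triplicates and do not say whether these were separate cultures, so each p-value measures the spread between arrays, which may be technical.

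A microRNA guides the silencing complex to partly complementary sites, mostly in the 3' untranslated region of messenger RNAs, which are then translated less and degraded sooner. A mimic is a synthetic duplex that loads the complex with the guide strand, and an inhibitor is a modified antisense RNA that occupies the cell's own microRNA. Direct targets are therefore looked for among transcripts that are lower with a mimic than with an inhibitor, although transcripts further downstream can move either way. The hairpin of miR-378 lies in an intron of Ppargc1b, a coactivator gene of mitochondrial metabolism, and the microRNA is known for roles in lipid metabolism, muscle and angiogenesis.

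Values are the authors' log2 expression values, on which a difference of 1 is a doubling. A gene is called when the adjusted p of limma, a moderated linear model fitted over all genes with Benjamini-Hochberg adjustment, is below 0.05. Mimic 3 and inhibitor 1 stood apart: on the first principal component of the 6 arrays, which held 72.7% of the variance, the mimic arrays scored -10.9, -5.7 and -22.5 and the inhibitor arrays 19.2, 8.1 and 11.7. The 75th percentile over all probe sets ran from 5.55 on mimic 3 to 5.76 on inhibitor 1. Results are therefore also given without these 2 arrays. The probe set of Mir378a, which reads precursor transcripts and is not known to read a transfected mimic, stood at 3.98, 3.93 and 3.94 with the mimic and at 3.99, 4.02 and 3.93 with the inhibitor, close to the level filter of 3.86, and was not called (limma, adjusted p = 0.725). It gives no check on the labels. Fibroblast genes marked the cells: 16 of 17 fibroblast markers passed the filter. By contrast 10 of 12 macrophage and 8 of 12 epithelial markers lay below it. The filter left 40% of all genes below it, and the 5 of 12 endothelial and 6 of 13 muscle markers below it were near that share.

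Mimic and inhibitor differed in 2311 of 11963 genes (limma, 19.3%). Of these, 564 were higher with the mimic (4.71% of genes tested) and 1747 lower (14.6%). The larger differences leaned further to one side, with 372 genes at least 1.5-fold lower (3.11%) against 38 at least 1.5-fold higher (0.318%), and 33 (0.276%) against 6 genes (0.0502%) at 2-fold. The surplus of lower genes depended on the scaling: 24.4% of calls were higher with the mimic on the deposited values, 44.3% after another quantile normalization (1350 higher, 1696 lower) and 50.9% after centring each array on its median (1508 higher, 1454 lower). As a share of all genes tested, the higher calls thus rose from 4.71% to 11.3% after quantile normalization, with 14.2% lower. Counts per list after rescaling belong beside these shares. Without mimic 3 and inhibitor 1 the split was 851 higher to 1331 lower (39.0% higher), which is 7.11% and 11.1% of genes tested. Of the 2311 calls, 1735 were shared. The median difference over all genes was -0.02, against 0.01 after quantile normalization and 0.08 after centring. The number of calls was 970 without mimic 1, 1132 without inhibitor 1 and 938 without inhibitor 3, each over 1.5 times below 2311, and the calls higher with the mimic numbered 202, 303, 184 and, without inhibitor 2, 304. Of all calls, 801 (34.7%) held in all 6 fits with an array left out.

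**Figure D1:**
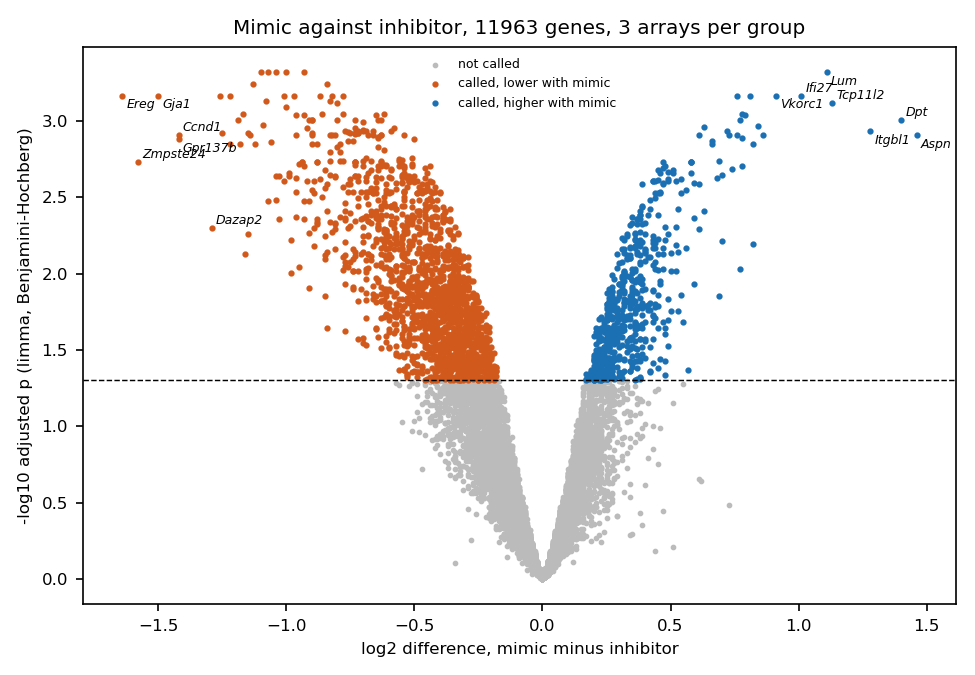
Each point is 1 of 11963 genes, with the log2 difference mimic minus inhibitor on the x axis and -log10 of limma's adjusted p on the y axis (3 arrays per group). The dashed line marks an adjusted p of 0.05; 1747 called genes lie to the left of 0 and 564 to the right, and labels name the largest differences.

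The largest difference was that of Ereg (gene ID 13874), which encodes epiregulin, a ligand of the epidermal growth factor receptor. Ereg stood at 4.60, 4.60 and 4.30 on the mimic arrays, 4.19, 4.22 and 4.25 on the control arrays, and 6.36, 5.97 and 6.11 on the inhibitor arrays. The inhibitor arrays were far above all others, and the difference of -1.64 ± 0.12 (SE) was a 3.13-fold lower level with the mimic (limma, adjusted p = 0.000683). Zmpste24 (gene ID 230709), the protease that matures prelamin A, showed another arrangement. It stood at 6.88, 7.04 and 6.33 with the mimic, 7.95, 7.92 and 8.02 in the controls and 8.49, 8.25 and 8.26 with the inhibitor. All 3 groups were separate, with the mimic farthest from the controls, and the difference was -1.58 ± 0.17 (SE; limma, adjusted p = 0.00185).

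Gja1, the gap junction protein connexin of fibroblasts, was 2.82-fold lower with the mimic. Its values were 5.68, 5.95 and 5.58 with the mimic, 6.16, 6.28 and 6.28 in the controls and 7.35, 7.13 and 7.20 with the inhibitor, so that each array of a group lay on its own level. Ccnd1, which encodes cyclin D1, the partner of Cdk4 and Cdk6 in the G1 phase, was 2.68-fold lower, from 8.42 ± 0.08 with the inhibitor to 6.99 ± 0.29 with the mimic (SD, n = 3; limma, adjusted p = 0.00123). Gpr137b, a lysosomal membrane protein, differed by -1.42 and Dazap2 by -1.29, and for Dazap2 the controls (7.92) lay with the inhibitor (7.89) and not with the mimic (6.61 ± 0.43, SD, n = 3). Also among the 15 largest were the basement membrane gene Nid1 (-1.26), Serpina3n (-1.25), the oxidase Ero1a (-1.22), Cd109 (-1.22), the arginine and lysine transporter Slc7a1 (-1.19), the heme exporter Flvcr1 (-1.18), the activin subunit Inhba (-1.17), the drug transporter Abcb1b (-1.16) and Utp20 (-1.15), a factor of ribosome assembly. Limma's adjusted p was at most 0.00747 in this group of 15, and each call held in all 6 fits with an array left out.

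In the other direction, matrix genes led. Aspn (gene ID 66695), which encodes the small proteoglycan asporin, stood at 9.52, 9.38 and 9.47 with the mimic, 8.74, 8.78 and 8.96 in the controls and 8.26, 7.64 and 8.08 with the inhibitor. The groups did not overlap, and Aspn was 2.75-fold higher with the mimic (1.46 ± 0.14, SE; limma, adjusted p = 0.00124). Dpt (gene ID 56429), dermatopontin, stood at 5.83, 5.80 and 5.36 with the mimic, 4.43, 4.39 and 4.42 in the controls and 4.25, 4.30 and 4.25 with the inhibitor. Control and inhibitor arrays lay close together, and the mimic arrays lay above both (1.40 ± 0.12, SE; limma, adjusted p = 0.000978). Next came Itgbl1 (1.28), Tcp11l2 (1.13), the proteoglycan lumican, Lum (1.11), Ifi27 (1.01), the vitamin K epoxide reductase Vkorc1 (0.91), the retrieval receptor Kdelr3 (0.86), the small GTPase Rras (0.84), Fam122b and Trim30a (0.82 each), Lrrc17 (0.81), the glutathione transferase Gstm5 (0.79), Ypel3 and the proteoglycan osteoglycin, Ogn (0.78 each). The highest adjusted p among these 15 was 0.00638 (limma), and their calls too held in all 6 fits.

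**Figure D2:**
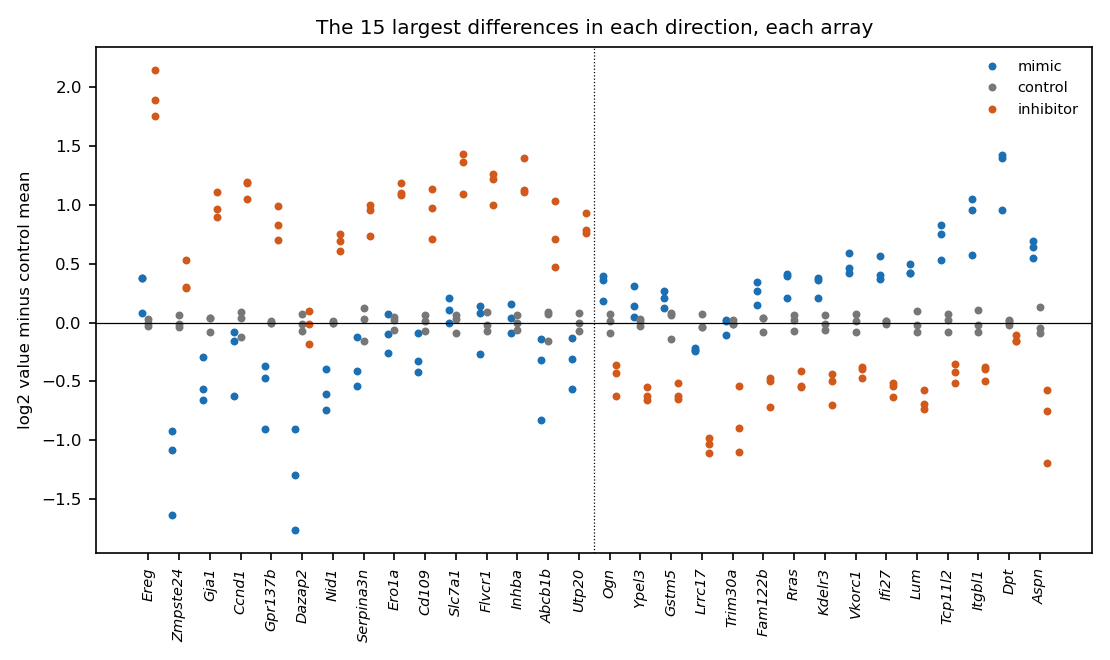
Log2 value of each array minus the control mean for the 15 genes of largest difference in each direction. Points are single arrays (3 per group); Ereg on the left shows inhibitor arrays far above the others, and Dpt on the right shows mimic arrays above both other groups.

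A control position was computed for each of the 2309 called genes whose mimic and inhibitor arrays did not overlap (19.3% of genes tested). It is 0 where the control mean equals the mimic mean and 1 where it equals the inhibitor mean. The median was 0.33, closer to the mimic, and 81.7% of genes had the control mean between the other two means. In 26.3% the controls lay near the mimic (0 to 0.25), in 47.6% between (0.25 to 0.75), in 7.75% near the inhibitor (0.75 to 1), in 14.0% beyond the mimic and in 4.24% beyond the inhibitor. The called genes were near the shares over all 4620 genes without overlap, called or not. Their median was 0.34, and 75.2% had the control mean between the other two means. Of these 4620, 22.8% had controls near the mimic, 44.0% between, 8.44% near the inhibitor, 17.9% beyond the mimic and 6.86% beyond the inhibitor. Where the controls lay beyond a group, both treatment means were on the same side of the control mean. Lower and higher then compare only the mimic with the inhibitor. All 3 control arrays lay inside the gap between the groups in 590 called genes (25.6%), against 13.9% of the 4620. Genes called lower and higher with the mimic had similar medians, 0.32 and 0.37.

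Named genes show each arrangement. Myc, Inhba, Ptgs2 and Mdm2 had controls beyond the mimic mean by a small amount (positions of -0.21, -0.03, -0.05 and -0.02), so that their difference was one between the inhibitor and both other groups. Ccnd1, Tfrc, the transferrin receptor, and Ifrd1 had controls near the mimic (0.20, 0.07 and 0.06). Near the inhibitor lay the controls of Rcn2, which binds calcium in the secretory pathway (0.98), Selenon (0.80), Spns1 (0.82), Arrdc4 (0.85) and the condensin subunit Ncapg (0.76). Controls beyond the inhibitor were found for Vps26c (1.13), Zfp706 (1.05), Reep4 (1.02) and Stmn1 (1.33), a microtubule-destabilizing protein, all lower with the mimic. Calcrl (1.12) and Klf2 (1.05) were higher with the mimic, with the controls at the level of the inhibitor.

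**Figure D3:**
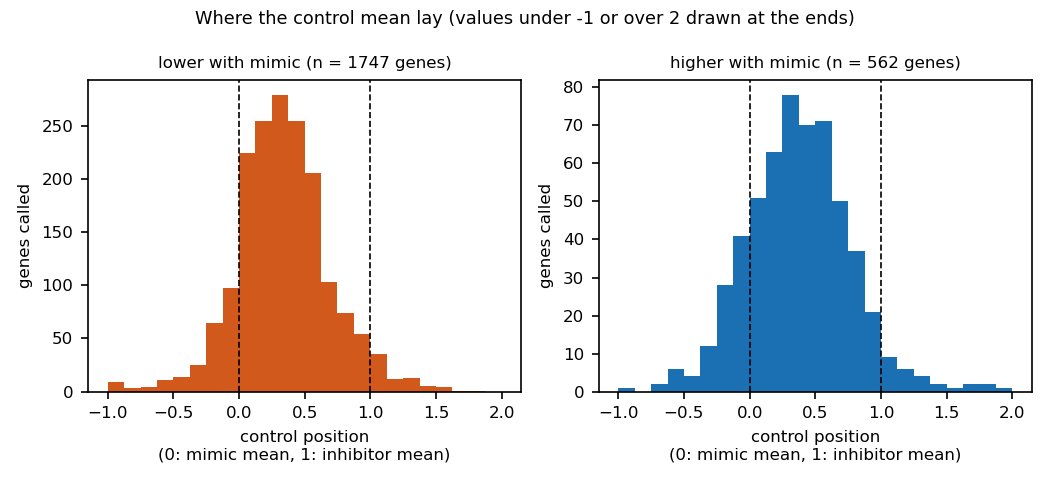
Number of called, non-overlapping genes by control position, where 0 is the mimic mean and 1 the inhibitor mean (dashed lines), for 1747 genes lower and 562 higher with the mimic. Values under -1 or over 2 are drawn at the ends. Most genes lie between 0 and 1, with medians of 0.32 and 0.37. Over all 4620 non-overlapping genes, called or not, 75.2% lie there.

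Among growth factor signalling genes, a minority of each list was lower with the mimic. Of 9 tested genes of epidermal growth factor receptor ligands and receptors, 4 were lower (44.4%, against 14.6% of all genes): besides Ereg these were the ligand Hbegf (-0.73), the receptor antagonist Lrig1 (-0.45) and the ligand Nrg1 (-0.25). The mimic arrays of Ereg, Hbegf and Lrig1 lay above all control arrays, as did their inhibitor arrays (control positions of -0.17, -0.60 and -0.41). The call of Nrg1 ended without mimic 1, inhibitor 1 or inhibitor 3 (limma, adjusted p of up to 0.0688). The list median was -0.09, and 0.01 after quantile normalization or median centring. Of 16 MAP kinase feedback genes, 6 were lower and 10 not called, with a median of -0.24: the phosphatases Dusp7 (-0.70), Dusp6 (-0.64), Dusp4 (-0.53) and Dusp10 (-0.42), and the signalling inhibitors Spred1 (-0.61) and Spry2 (-0.39). Dusp4 lay below the level filter of 3.86 on all mimic arrays (3.68, 3.63 and 3.79) and control arrays (3.71, 3.70 and 3.59). It passed the filter only through its inhibitor arrays (4.32, 4.19 and 4.19). Spry2 was not called without mimic 1 or without any one of the inhibitor arrays (limma, adjusted p of up to 0.128). Of 9 AP-1 genes, which encode a dimeric factor downstream of these kinases, Fosl1 (-0.66), Jun (-0.34) and Atf3 (-0.26) were lower, and the call of Atf3 ended with any array left out except mimic 3 (limma, adjusted p of up to 0.142). Without mimic 3 and inhibitor 1 together, these lists had 4, 6 and 3 lower calls, and 2, 0 and 0 higher ones.

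Of 29 genes of the Myc network and G1 cyclins, 12 were lower (against 14.6% of all genes) and 3 higher (against 4.71%). The median was -0.24 (10 lower and 2 higher without mimic 3 and inhibitor 1). Myc (gene ID 17869) stood at 7.03, 6.96 and 6.69 with the mimic, 6.68, 6.78 and 6.60 in the controls and 7.90, 7.78 and 7.87 with the inhibitor. Mimic and control arrays overlapped, and the inhibitor arrays lay above both (-0.96 ± 0.09, SE; limma, adjusted p = 0.00123). Skp2, the ubiquitin ligase subunit that removes the cell cycle inhibitor p27, stood at 5.09, 5.06 and 4.95 with the mimic, 5.68, 5.78 and 5.84 in the controls and 6.18, 5.95 and 6.21 with the inhibitor, in 3 separate groups (-1.08 ± 0.08, SE). Cdk6 (-0.89), cyclin E1, Ccne1 (-0.63), the pocket protein gene Rbl1 (-0.62) and cyclin D2, Ccnd2 (-0.62), were lower. Mxd4, whose product competes with Myc for its partner, was higher by 0.73, and so was Cdkn1b, which encodes p27, by 0.39. The call of Cdkn1b ended without mimic 1 or inhibitor 3 (limma, adjusted p of up to 0.0765).

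Most genes of DNA replication were lower with the mimic. Of 23 origin licensing and helicase genes 14 were lower, with a median of -0.44, and of 29 fork and chromatin assembly genes 25 were lower, also with a median of -0.44, against 14.6% and a median of -0.02 for all genes. Without mimic 3 and inhibitor 1 the counts were 13 and 24. In RNA of whole cultures, fewer cycling cells and less of these RNAs per cell cannot be told apart. Mcm3 (gene ID 17215), a subunit of the ring-shaped helicase, stood at 7.07, 7.12 and 6.78 with the mimic, 7.61, 7.56 and 7.52 in the controls and 8.17, 8.02 and 8.06 with the inhibitor. Mcm5 stood at 6.22, 6.25 and 6.13, then 6.77, 6.68 and 6.63, then 7.15, 7.14 and 7.10 in the same order. In both genes the 9 arrays formed 3 levels with the controls midway, and the levels with the mimic were 2.13-fold and 1.90-fold lower (limma, adjusted p = 0.00106 and 0.000478). Mcm6 and the loading factor Cdt1 differed by -0.83 each, Mcm2 by -0.80, Mcm4 by -0.79 and the kinase activator Dbf4 by -0.77. At the fork, Uhrf1, which guides maintenance methylation, differed by -0.89, the chromatin assembly subunit Chaf1b by -0.75, the ligase Lig1 by -0.71, the histone chaperone Asf1b by -0.70 and the DNA methyltransferase Dnmt1 by -0.68. The control position was midway, with a median of 0.48 over the called members of both lists.

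Promoters of these genes are shown because members of the replication and mitosis lists moved together. The windows come from RefSeq (GRCm38.p6) and run from 250 bases before to 50 bases after the start of a gene, on its own strand, and 9538 tested genes had one. Words for 5 motifs were searched on both strands, chosen with the results known. For E2F, the factor family that controls S phase genes, the words were TTTCCCGC, TTTGGCGC, TTTCGCGC and TTTGCCGC. At least 1 of these was in 10 of 19 licensing promoters (52.6%), 5 of 15 of homologous recombination (33.3%), 5 of 25 of the fork (20.0%), 2 of 23 of nucleotide synthesis (8.70%) and 3 of 41 of mitosis (7.32%), against 4.21% of all 9538. It was also in 3 of 33 ribosome biogenesis promoters (9.09%) and in 7.07% of genes called lower with the mimic. The sterol, aminoacyl-tRNA synthetase, p53, MAP kinase feedback and proteoglycan lists had 0. The 3 windows shown first are those of the called licensing genes with the largest differences that hold a word, with the words in capitals (2 in Mcm3, 2 in Mcm5 and 3 in Mcm6; those in Mcm5 overlap, as do 2 of those in Mcm6). They lie at chr1:20820263-20820562 (minus strand), chr8:75109259-75109558 (plus strand) and chr1:128359656-128359955 (minus strand).
Mcm3: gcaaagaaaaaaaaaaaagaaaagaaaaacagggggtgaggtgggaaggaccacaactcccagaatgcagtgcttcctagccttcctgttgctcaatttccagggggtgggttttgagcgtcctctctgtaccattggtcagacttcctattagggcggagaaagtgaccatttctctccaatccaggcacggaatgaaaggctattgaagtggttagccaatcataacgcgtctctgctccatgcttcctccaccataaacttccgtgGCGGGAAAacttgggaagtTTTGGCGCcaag
Mcm5: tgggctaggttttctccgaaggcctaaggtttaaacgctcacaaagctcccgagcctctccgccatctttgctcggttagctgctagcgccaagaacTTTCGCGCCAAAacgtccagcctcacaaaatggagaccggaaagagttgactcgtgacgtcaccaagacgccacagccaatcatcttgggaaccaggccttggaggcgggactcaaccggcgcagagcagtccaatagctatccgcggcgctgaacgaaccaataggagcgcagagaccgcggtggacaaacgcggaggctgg
Mcm6: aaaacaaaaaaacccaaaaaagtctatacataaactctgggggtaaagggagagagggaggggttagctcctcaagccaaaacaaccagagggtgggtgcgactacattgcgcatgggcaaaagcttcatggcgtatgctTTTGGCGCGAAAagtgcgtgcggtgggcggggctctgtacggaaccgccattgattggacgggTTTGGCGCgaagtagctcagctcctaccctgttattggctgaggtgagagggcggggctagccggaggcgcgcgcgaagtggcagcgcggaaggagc

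Nucleotide supply and repair followed the same direction. Of 25 nucleotide synthesis genes 19 were lower, with a median of -0.51, and 17 were without mimic 3 and inhibitor 1. Mthfd1, a folate enzyme, stood at 6.49, 6.59 and 5.89 with the mimic, 6.90, 6.83 and 6.92 in the controls and 7.64, 7.33 and 7.44 with the inhibitor. Mimic 3 lay far below the other mimic arrays, yet no group overlapped another (-1.15 ± 0.18, SE; limma, adjusted p = 0.00546). The purine enzymes Ppat (-0.96), Pfas (-0.88) and Gart (-0.67), the pyrimidine enzymes Cad (-0.73), Umps (-0.69) and Ctps (-0.67), and Rrm2 (-0.69), a subunit of ribonucleotide reductase, were lower. The median control position of the called members was 0.28, near the 0.32 of all genes called lower. Of 19 genes of homologous recombination and checkpoint 11 were lower, led by Exo1 (-0.68), Rad54l (-0.63) and Topbp1 (-0.62). That count was 4 without mimic 1, 6 without inhibitor 1, 6 without inhibitor 2, 5 without inhibitor 3, 7 without mimic 3, and 7 without mimic 3 and inhibitor 1 together.

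Of 49 mitosis genes 42 were lower with the mimic, with a median of -0.42. Mki67, the marker of cycling cells, stood at 6.89, 6.98 and 6.73 with the mimic, 7.47, 7.51 and 7.52 in the controls and 7.69, 7.48 and 7.42 with the inhibitor. Control and inhibitor arrays overlapped, and all mimic arrays lay below them (-0.66 ± 0.09, SE; limma, adjusted p = 0.00401). The spindle motor Kif11 (-0.66), the cytokinesis protein anillin, Anln (-0.64), the checkpoint kinase Bub1 (-0.61), Ect2 (-0.61), the factor Foxm1 (-0.55) and Incenp (-0.53) were lower too. The median control position of the called members was 0.81, near the inhibitor, where it was 0.48 in the replication lists. No test of that difference was made, since all lists share the same control arrays. The count of 42 depended on the arrays: 19 were called without mimic 1, 19 without inhibitor 1 and 18 without inhibitor 3. Without mimic 3 and inhibitor 1 together 31 were called, and the list median was -0.31.

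The word TTTGAA, the cell cycle homology region (CHR) bound by the complexes that control late cell cycle genes, was in 31 of 41 mitosis promoters (75.6%), against 11.5% of all 9538. It was in 5 of 19 licensing promoters (26.3%), 3 of 25 fork promoters (12.0%) and 14.2% of genes called lower with the mimic. In the other lists searched the share ran from 5.0% (sterol genes) to 13.0% (nucleotide synthesis, and proteoglycans and basement membrane). The windows of the called mitosis genes with the largest differences among those that hold the word follow, with the word in capitals on either strand. That of Kif11 is at chr19:37376132-37376431 (plus strand) and that of Mki67 at chr7:135716330-135716629 (minus strand).
Kif11: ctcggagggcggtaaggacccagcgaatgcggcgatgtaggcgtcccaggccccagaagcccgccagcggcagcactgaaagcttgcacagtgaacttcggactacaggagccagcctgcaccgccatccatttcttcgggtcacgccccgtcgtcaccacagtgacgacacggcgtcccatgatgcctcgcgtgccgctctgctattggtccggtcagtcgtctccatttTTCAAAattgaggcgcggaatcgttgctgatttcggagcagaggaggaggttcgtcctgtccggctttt
Mki67: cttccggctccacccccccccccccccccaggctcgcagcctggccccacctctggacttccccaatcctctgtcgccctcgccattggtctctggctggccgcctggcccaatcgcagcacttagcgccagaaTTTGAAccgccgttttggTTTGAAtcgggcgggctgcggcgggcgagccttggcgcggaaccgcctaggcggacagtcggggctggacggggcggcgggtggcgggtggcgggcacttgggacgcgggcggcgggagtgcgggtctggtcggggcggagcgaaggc
Of the remaining 3 searches, 2 found nothing in the lists they were made for. The sterol regulatory element, searched in 4 variants, was in 0 of 20 sterol gene promoters, against 0.178% of all. The AP-1 words TGAGTCA and TGACTCA, each the reverse complement of the other, were in 0 of 14 promoters of MAP kinase feedback genes, against 3.42%. The E-box CACGTG, which Myc and related factors bind, was in 7 of 33 ribosome biogenesis promoters (21.2%) and 3 of 11 of the aminoacyl-tRNA synthetases (27.3%), against 10.2% of all. It was also in 5 of 25 fork promoters (20.0%) and 4 of 20 sterol gene promoters (20.0%). In the other lists searched the share ran from 0 of 15 (homologous recombination) to 14.3% (p53 targets and MAP kinase feedback). A match is a description of letters, and a window without one says only that these letters are absent from it.

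**Figure D4:**
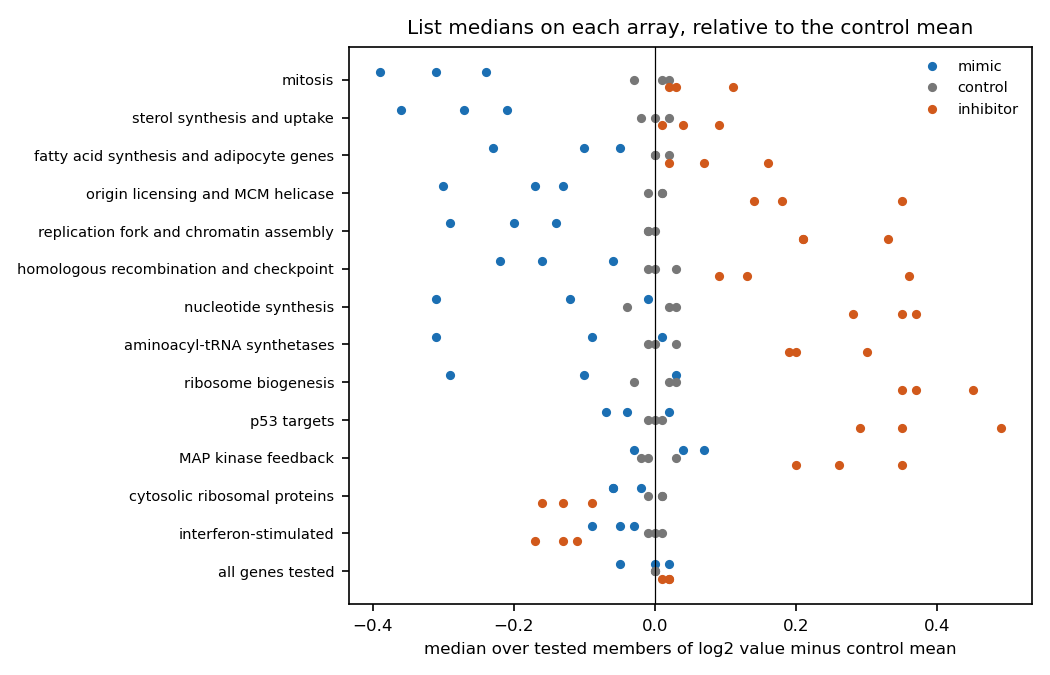
Median over the tested members of each list of the log2 value minus the control mean, for each of the 9 arrays. Mitosis and sterol medians lie at -0.21 or below on the mimic arrays and between 0.01 and 0.11 on the inhibitor arrays, while p53 and MAP kinase feedback medians lie at 0.20 or above on the inhibitor arrays and between -0.07 and 0.07 on the mimic arrays.

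Among called lipid synthesis genes the median control position lay closer to the inhibitor than to the mimic. Of 25 genes of sterol synthesis and uptake 13 were lower, with a median of -0.30 and a median control position of 0.83. Aacs, acetoacetyl-CoA synthetase, stood at 7.06, 7.24 and 7.11 with the mimic, 7.94, 7.80 and 7.66 in the controls and 7.84, 7.86 and 7.79 with the inhibitor. Only the mimic arrays stood apart (-0.70 ± 0.06, SE; limma, adjusted p = 0.00114). The isomerase Idi1 (-0.64), the desaturase Sc5d (-0.57), the sterol carrier Stard4 (-0.55), Cyp51 (-0.49) and the squalene epoxidase Sqle (-0.48) were lower. The count was 7 without mimic 1, 8 without inhibitor 3, and 11 without mimic 3 and inhibitor 1. Of 21 genes of fatty acid synthesis and adipocytes 8 were lower, among them the elongase Elovl6 (-0.60), the malic enzyme Me1 (-0.59), Acaca (-0.49), Acly (-0.46) and Fasn (-0.44), with a median position of 0.74. This count was 2 without mimic 1, 2 without inhibitor 1 and 3 without inhibitor 3, since Me1 and Acly held in all 6 fits but Elovl6, Acaca and Fasn did not. It was 6 without mimic 3 and inhibitor 1 together.

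Most genes that build ribosomes and charge transfer RNAs were lower with the mimic, while the ribosomal proteins themselves gave few calls. Of 37 ribosome biogenesis genes 30 were lower, with a median of -0.61, the lowest median of the 39 lists. Utp20 stood at 5.47, 5.65 and 5.22 with the mimic, 5.78, 5.71 and 5.86 in the controls and 6.71, 6.56 and 6.54 with the inhibitor. All 3 control arrays lay between the groups, closer to the mimic (control position 0.29). Heatr1, which is needed for ribosomal RNA transcription (-1.06), had its controls near the mimic (0.14). The RNA polymerase I subunit Polr1b (-0.93), Noc3l (-0.90), the pseudouridine synthase Dkc1 (-0.85), the methyltransferase Nop2 (-0.81) and Nop58 (-0.77) were lower, and the median control position was 0.21. Without mimic 3 and inhibitor 1, 25 were called. Of 24 cytosolic ribosomal proteins only Rps20 was called, higher by 0.22, with a list median of 0.08. This call ended without mimic 1, mimic 2, inhibitor 1 or inhibitor 3 (limma, adjusted p of up to 0.123). After quantile normalization 2 were higher (against 11.3% of all genes) and 1 lower (14.2%). After median centring 5 were higher, against 1508 of all 11963 genes.

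Of 18 aminoacyl-tRNA synthetases, which charge transfer RNAs, 12 were lower, led by Vars (-0.72), Iars (-0.58) and Lars (-0.47), with a median of -0.38. The count was 6 when mimic 1 was omitted, 5 when inhibitor 1 or inhibitor 3 was, and 10 without mimic 3 and inhibitor 1 together. Of 26 genes of amino acid transport and the ATF4 stress response 15 were lower and 1 higher: Slc7a1 led, followed by the transporters Slc38a1 (-0.93), Slc7a5 (-0.88) and Slc7a11 (-0.58) and the pseudokinase Trib3 (-0.53). There 9 were called without mimic 1, 9 without inhibitor 1 and 9 without inhibitor 3, none of them higher, and 13 lower and 1 higher without mimic 3 and inhibitor 1 together. Of 22 endoplasmic reticulum chaperones and folding factors 9 were lower, among them Ero1a, the chaperone Hspa5 (-0.53) and calnexin, Canx (-0.45). Dnajb9 was higher by 0.44, although not without mimic 1 or inhibitor 3 (limma, adjusted p of up to 0.0799). The lower calls of this list numbered 6 without mimic 1, 5 without inhibitor 1, 4 without inhibitor 3, and 7 without mimic 3 and inhibitor 1 together.

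Most targets of p53, the damage-responsive factor that restrains division, were lower with the mimic, in the same direction as the division genes. Of 28 tested 18 were lower and 1 higher, with a median of -0.43 (18 lower and 2 higher without mimic 3 and inhibitor 1). Mdm2, the ubiquitin ligase of p53, stood at 6.76, 6.90 and 6.51 with the mimic, 6.76, 6.66 and 6.71 in the controls and 7.73, 7.55 and 7.70 with the inhibitor. Mimic and control arrays overlapped, with the inhibitor arrays above (-0.94 ± 0.10, SE; limma, adjusted p = 0.00185). Ccng1, cyclin G1 (-0.93), Trp53inp1 (-0.85) and the receptor Eda2r (-0.77) had the same arrangement, and the median control position was 0.08. Psrc1 differed from these: at 5.75, 5.88 and 5.76, then 6.41, 6.28 and 6.34 in the controls, then 6.91, 6.84 and 6.96 with the inhibitor, its controls lay midway (-1.10 ± 0.06, SE; limma, adjusted p = 0.000478).

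Matrix genes differed in both directions. Of 30 genes of proteoglycans and basement membrane 9 were higher (background 4.71%) and 3 lower, and 11 were higher and 3 lower without mimic 3 and inhibitor 1. The small leucine-rich proteoglycans Aspn, Lum and Ogn, the matrix proteins Dpt and periostin, Postn (0.70), and the basement membrane gene Nid2 (0.52) were higher. Nid1, its paralog, was lower, as were tenascin C, Tnc (-0.95), and the laminin chain Lamb1 (-0.40), the last not without mimic 1, inhibitor 1 or inhibitor 3 (limma, adjusted p of up to 0.0695). Nid1 stood at 8.25, 8.47 and 8.12 with the mimic and 9.61, 9.47 and 9.55 with the inhibitor, with the controls at 8.86, 8.87 and 8.86, between both. Of 24 collagen and lysyl oxidase genes 3 were higher (background 4.71%) and 3 lower (14.6%), with a median of -0.01. Col11a1 (0.43) and Col8a1 (-0.75) came first. Calls in this list numbered 2 without mimic 1, 2 without inhibitor 3 and 3 without inhibitor 1. They were 2 higher and 5 lower without mimic 2, and 5 higher and 1 lower without mimic 3 and inhibitor 1 together. After quantile normalization 6 were higher (background 11.3%) and 3 lower (14.2%). Of 16 fibroblast markers Lum, Col3a1 (0.32), Dcn (0.28), Thy1 (0.22) and Twist1 (0.20) were higher. That count was 1 without mimic 1, 1 without inhibitor 2, 1 without inhibitor 3, 3 without inhibitor 1, 3 without mimic 3, and 3 without mimic 3 and inhibitor 1 together.

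Of 23 genes of TGF-beta and BMP ligands and responses 6 were lower and 3 higher. Inhba (gene ID 16323) stood at 4.69, 4.57 and 4.44 with the mimic, 4.59, 4.53 and 4.47 in the controls and 5.64, 5.65 and 5.92 with the inhibitor, which alone stood apart. The latent TGF-beta binding proteins Ltbp1 (-1.03) and Ltbp2 (-0.68), the BMP antagonist Grem1 (-0.41) and the inhibitory Smad7 (-0.34) were lower, while the BMP-responsive Id2 (0.43) and Id3 (0.32) were higher. The call of Id3 ended without mimic 1, inhibitor 1 or inhibitor 3 (limma, adjusted p of up to 0.0936). Of 22 genes responsive to YAP or SRF 4 were lower, led by the receptor Axl (-0.43), and 2 higher, Myl9 (0.40) and Fhl2 (0.27), against 14.6% and 4.71% of all genes. Ccn2, which encodes connective tissue growth factor (-0.29), and Fhl2 had both treatments on the same side of the controls: Ccn2 stood at 8.92 ± 0.06 with the mimic and 9.20 ± 0.03 with the inhibitor (SD, n = 3), against 8.15 in the controls. The call of Ccn2 ended without mimic 1, that of Fhl2 without mimic 1 or inhibitor 3, and that of Axl without mimic 1, inhibitor 1 or inhibitor 3. In this list 1 call was left without mimic 1, 2 without inhibitor 3 and 3 without inhibitor 1. Without mimic 3 and inhibitor 1 together, 6 of the TGF-beta list were lower and 3 higher, and 2 of the YAP and SRF list were lower and 3 higher.

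Of the inflammatory and interferon-stimulated genes 27.8% and 22.7% were called, against 19.3% of all genes. Of 18 inflammatory genes 5 were lower with the mimic (background 14.6%), with a median of -0.13, and of -0.03 after median centring. Ptgs2, cyclooxygenase 2, stood at 8.07, 8.10 and 7.66 with the mimic, 7.84, 7.78 and 8.04 in the controls and 9.08, 9.0 and 8.85 with the inhibitor. Only the inhibitor arrays stood apart (-1.04 ± 0.12, SE; limma, adjusted p = 0.00229). The chemokines Ccl2 (-0.73) and Ccl7 (-0.66) and the macrophage growth factor Csf1 (-0.73) were lower, while Lif (-0.18) lost its call whichever array was omitted. Of 22 interferon-stimulated genes 5 were higher with the mimic (background 4.71%), with a median of 0.12: Trim30a, the chemokine Ccl5 (0.40), Irf9 (0.35), the RNA sensor Ddx58 (0.34) and Tapbp (0.31). That count was 2 without mimic 1, 3 without inhibitor 1, 3 without inhibitor 3, and 7 without mimic 3 and inhibitor 1 together, while 4 were higher and 2 lower without mimic 2. After quantile normalization 7 were higher (background 11.3%) and 1 lower (14.2%). After median centring 10 and 1 were, against 1508 and 1454 of all 11963 genes. Another 12 members of this list lay below the level filter.

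In energy metabolism 28.6% of glycolysis and hypoxia, 8.7% of respiratory chain and 18.2% of fatty acid oxidation genes were called, against 19.3% of all genes. Of 21 genes of glycolysis and hypoxia 5 were lower (background 14.6%) and 1 higher (4.71%). Vegfa (-0.91), hexokinase 2, Hk2 (-0.90), Arrdc4 (-0.81), the glucose transporter Slc2a1 (-0.65) and Ldha (-0.28) were lower and Bnip3 was higher (0.34). The call of Ldha ended without mimic 1 or any one inhibitor array, and that of Bnip3 without mimic 1, inhibitor 2 or inhibitor 3. Of 46 respiratory chain genes 3 were higher (background 4.71%) and 1 lower (14.6%), with a median of 0.07. After quantile normalization 8 were higher (background 11.3%) and 0 lower (14.2%). After median centring 9 and 0 were, against 1508 and 1454 of all 11963 genes. The complex I subunits Ndufs8 (0.46) and Ndufc1 (0.37) held in all 6 fits, and the list had 2 calls when mimic 1, inhibitor 1 or inhibitor 3 was omitted. Of 22 genes of fatty acid oxidation Acadm (0.35), Ech1 (0.33), Slc25a20 (0.30) and Acaa1a (0.20) were higher (background 4.71%). Limma called 1 without mimic 1, 2 without mimic 2, 1 without inhibitor 2, and 0 without inhibitor 1 or inhibitor 3, while 6 were called without mimic 3 and inhibitor 1 together. After quantile normalization 9 were higher (background 11.3%), and after median centring 8 (background 1508 of 11963 genes). With all 6 arrays, 7 members were higher and 2 lower at an unadjusted p under 0.05.

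Of 28 genes linked to quiescence and FoxO factors 7 were higher (background 4.71%) and 4 lower (14.6%). After quantile normalization 10 were higher (background 11.3%) and 3 lower (14.2%). After median centring 13 and 4 were, against 1508 and 1454 of all 11963 genes. Ypel3, which restrains growth (0.78), the mitochondrial kinase Pink1 (0.40) and the transcriptional repressor Hbp1 (0.40) were higher, and Bcl6 (-0.44) and Klf9 (-0.45) lower. The counts were 3 higher and 1 lower without mimic 1, 3 and 2 without inhibitor 3, and 9 and 4 without mimic 3 and inhibitor 1 together. Klf9 lay above the controls in both treatments (control position -0.96), and its call ended without mimic 1 (limma, adjusted p = 0.0547).

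Reported targets of miR-378, collected from the literature for either arm of the hairpin, were tested in 19 cases. Of these 5 were lower with the mimic (26.3%, against 14.6% of all genes), with a median of -0.11 and values from -0.91 to 0.17. Vegfa, vascular endothelial growth factor A, stood at 5.48, 5.67 and 5.40 with the mimic, 5.77, 5.57 and 5.65 in the controls and 6.49, 6.40 and 6.39 with the inhibitor. Mimic and controls overlapped, and the difference was -0.91 ± 0.08 (SE; limma, adjusted p = 0.000978). Runx1 (-0.73) had the same arrangement, at 5.64, 5.72 and 5.30 with the mimic, 5.49, 5.62 and 5.49 in the controls and 6.34, 6.25 and 6.26 with the inhibitor. Igf1r, the insulin-like growth factor receptor (-0.43), Npnt (-0.35) and Gli3 (-0.30) were the others. Igf1r lost its call without mimic 1, inhibitor 1 or inhibitor 3, Npnt without inhibitor 1 or inhibitor 3, and Gli3 without any array except mimic 2 (limma, adjusted p of up to 0.0667, 0.0572 and 0.143). The list held 3 calls without mimic 1, 2 without inhibitor 1, 2 without inhibitor 3, and 4 without mimic 3 and inhibitor 1 together.

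The 14 other reported targets were not called. Differences were -0.44 for Med13, -0.30 for Galnt7, -0.20 for Gabpa, -0.18 for Pik3ca, -0.11 for Tob2, Sufu and Casp9, -0.06 for Prkag2, -0.02 for Ksr1, 0.01 for Zbtb20, 0.07 for Atg12, 0.09 for Grb2, 0.15 for Pdk1 and 0.17 for Crat. Limma's adjusted p ran from 0.0775 to 0.925. After quantile normalization 3 of them were called higher with the mimic, Crat (0.29), Pdk1 (0.24) and Atg12 (0.20), with adjusted p of 0.0224, 0.0308 and 0.0292 (limma), and Crat (0.26) and Pdk1 (0.24) were after median centring. Med13 and Galnt7 were called lower in the fit on all 9 arrays (limma, adjusted p = 0.0344 and 0.0301). The host gene Ppargc1b stood at 3.94, 3.91 and 4.0 with the mimic and 3.93, 4.02 and 3.96 with the inhibitor, near the level filter, and the groups overlapped (limma, adjusted p = 0.843).

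Of 24 genes of the small RNA machinery 6 were lower with the mimic (25.0%, against 14.6% of all genes). These were the Argonaute genes Ago1 (-0.62) and Ago2 (-0.37), the precursor exporter Xpo5 (-0.48) and its partner Ran (-0.41), Tsn (-0.33) and the decapping enzyme Dcp2 (-0.22). The call of Ago2 ended with any array left out except mimic 2 (limma, adjusted p of up to 0.159). Its mean was 6.75 with the mimic and 6.76 in the controls. Xpo5 lost its call without mimic 1, and Tsn without mimic 1, inhibitor 1 or inhibitor 3. Ago1 and Ran held whichever array was omitted, and the list had 2 calls without mimic 1, 3 without inhibitor 1, 3 without inhibitor 3, and 4 lower and 2 higher without mimic 3 and inhibitor 1 together. Among 12 microRNA precursor probe sets above the filter, Mir31 (-0.61) and Mir221 (-0.18) were lower (16.7%, near the 14.6% of all genes). Mir221 lost its call in each of the 6 fits.

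Limma called no marker of macrophages (2 tested), epithelium (4) or endothelium (7), and in these lists 0, 0 and 1 members had an unadjusted p under 0.05. Among 7 muscle markers tested, Acta1 was higher by 0.28, although not without mimic 1, inhibitor 1 or inhibitor 3 (limma, adjusted p of up to 0.11).

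**Figure D5:**
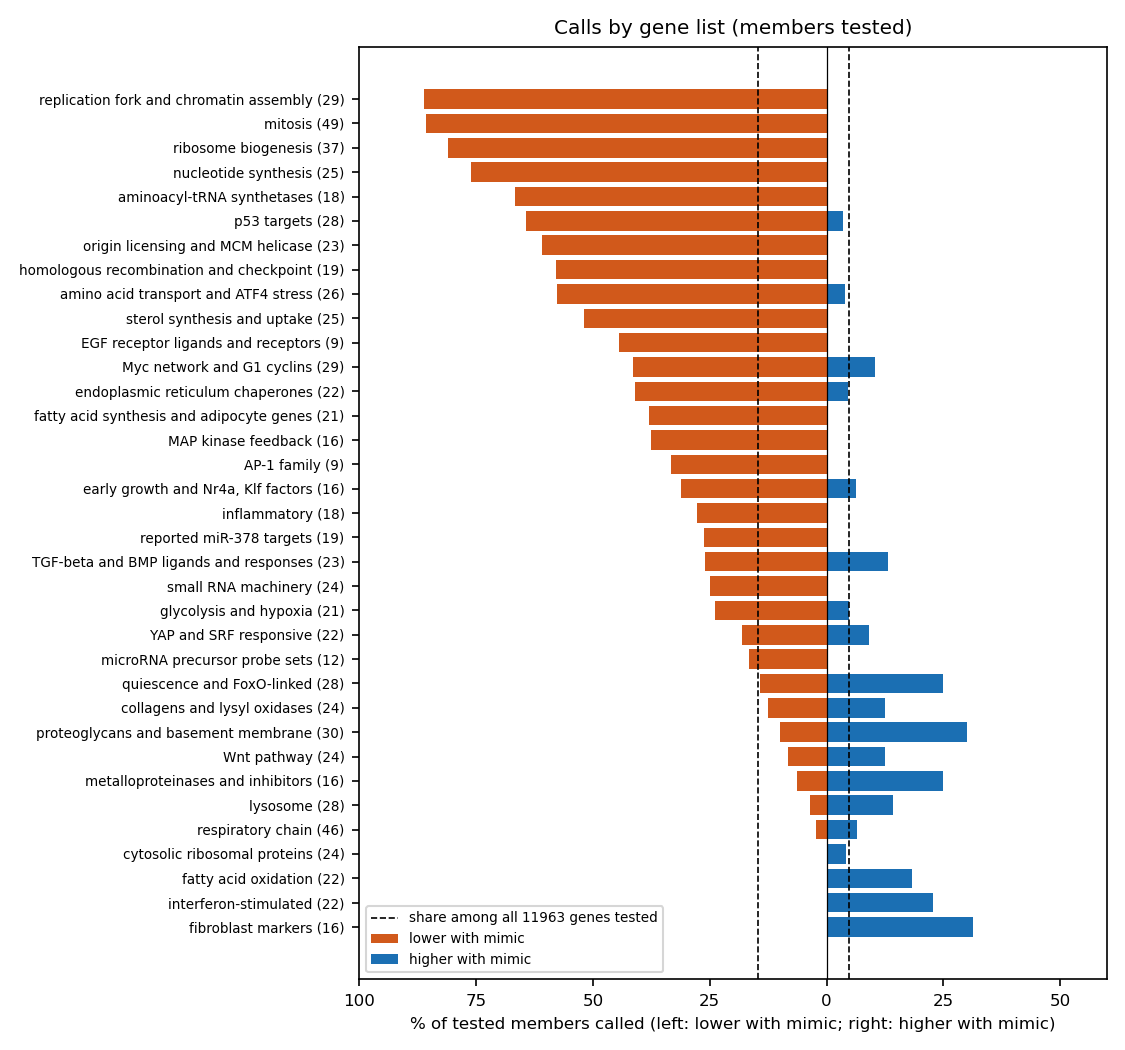
Share of the tested members of each list (number in brackets, lists of at least 8 members) called lower with the mimic (left) or higher (right); dashed lines mark 14.6% and 4.71% of all genes tested. Replication fork, mitosis and ribosome biogenesis lists reach furthest to the left, and fibroblast markers and proteoglycans furthest to the right.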

How the data were processed

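The table deposited by the authors holds log2 values of 28853 probe sets on each array, from 2.64 to 12.48, with none missing. Per the submitters' processing notes, Partek 6.5 and RMA were used; RMA corrects background, normalizes quantiles and summarizes probes. The sources used here give no genome build. Genes were named from the 21789 probe sets with 1 gene in the platform annotation (1621 had several and 5443 none), and the probe set of highest mean over the 9 arrays stood for the 999 genes with several. Gene IDs of 19856 genes matched RefSeq (GRCm38.p6), and no symbol changed. Genes above the 40th percentile of mean level (3.86) were tested on the 6 arrays in R 4.3.3 by limma 3.58.1, through lmFit followed by eBayes, with 4 residual and 3.74 prior degrees of freedom and a median moderated SD of 0.09. The number of arrays limits the precision. Standard errors are limma's.

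Genes named are the 15 largest differences each way, up to 5 called members of each of 39 lists, every tested reported target, Ppargc1b and up to 8 genes of each class of control position; further members were named after their values were seen. Members and lists were chosen with earlier results of these data known. The script was tested on simulated data. Seed sites were not searched, for want of transcript sequences. Python 3.11.15 and matplotlib 3.10.9 drew the figures.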

Additional observations from a re-analysis of the deposited data

How the results depend on the processing

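The count of 2311 calls ranged from 938 to 2428 with an array left out (184 to 720 higher, 754 to 1988 lower). It was 776 at an adjusted p under 0.01 (160 higher, 616 lower) and 410 with a fold of at least 1.5 (38 higher, 372 lower). Array quality weights gave 4086 (1414 higher, 2672 lower). The default estimator of these weights did not converge, so the gene-by-gene one was used, a choice made after seeing the data. Higher calls numbered 1350 after quantile normalization, 1508 after median centring and 851 without mimic 3 and inhibitor 1. Same-numbered mimic and inhibitor arrays deviated from their group means with correlations of 0.19, -0.59 and 0.19. With 3 arrays per group these cannot decide whether the numbers mark a shared day or culture, which the labels do not say. With the replicate number as a block 1923 genes were called (403 higher, 1520 lower). Of 195 called named genes none changed direction under any alternative run, and 136 held in all 6 fits with an array left out. The genes that changed direction were not called: Sufu (0.03) and Prkag2 (0.01) without mimic 3 and inhibitor 1, Prkag2 (0.04), Ppargc1b (0.08) and Ksr1 (0.08) after median centring, Ksr1 (0.01) and Zbtb20 (-0.00) after quantile normalization, and Zbtb20 (-0.06) with the mean of all probe sets. Above the 60th percentile the macrophage, epithelial and endothelial lists had no gene left and so no median. With an array left out, Ppargc1b ranged from -0.04 to 0.01, Ksr1 from -0.04 to 0.02 and Zbtb20 from -0.01 to 0.03.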

Other observations

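Genes of glutathione and iron handling, picked after their values were seen, differed in both directions. Gclc, the catalytic subunit of the enzyme that starts glutathione synthesis, stood at 4.84 ± 0.19 with the mimic, 5.20 in the controls and 5.98 ± 0.14 with the inhibitor (SD, n = 3), a difference of -1.14 (limma, adjusted p = 0.00123). Its partner subunit Gclm (-0.55), glutathione reductase, Gsr (-0.63), thioredoxin reductase, Txnrd1 (-0.81), the quinone reductase Nqo1 (-0.55) and heme oxygenase, Hmox1 (-0.84), were also lower with the mimic, and Srxn1 was not called (-0.08). The glutathione transferases Gstm1 (0.35), Gstm2 (0.77), Gstm4 (0.25) and Gstm5 (0.79) were higher, Gstm3 was not called (0.21), and Gsto1 was lower (-0.44). The call of Gstm4 ended with any array left out except mimic 3. Near-identical paralogs of the Gstm cluster may share probes. Tfrc (-1.07) and Flvcr1 (-1.18) were lower, and the ferritin chains Fth1 (0.02) and Ftl1 (0.14) were not called.

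Of 16 metalloproteinases and inhibitors 4 were higher with the mimic (background 4.71%) and 1 lower (14.6%). The higher ones were Adamts5 (0.53), Adamts1 (0.52), Adamts9 (0.43) and Mmp19 (0.20), and Plaur, the urokinase receptor, was lower (-0.49). Plaur lay above the controls in both treatments (control position -0.67). Without mimic 1, inhibitor 2 or inhibitor 3, 1 of the higher calls was left, and without inhibitor 1, 2 were. Of 24 Wnt genes 3 were higher (background 4.71%), Fzd4 (0.38), Sfrp2 (0.38) and Fzd1 (0.25), and Ccn4 (-0.55) and Wnt5a (-0.52) were lower (14.6%). Together these were 20.8% of the genes tested in the list, near the 19.3% called among all genes. Wnt5a held in all 6 fits with an array left out, and limma's higher calls numbered 1 without inhibitor 1 or inhibitor 2 and 0 without mimic 1, mimic 2 or inhibitor 3. With all 6 arrays, 7 members were higher at an unadjusted p under 0.05. Ccn4 was not called without mimic 1, inhibitor 1 or inhibitor 3. Of 28 lysosome genes 4 were higher (background 4.71%) and 1 lower (14.6%). Npc2 (0.38), Ctso (0.36), Hexa (0.23) and Lamp1 (0.22) were higher, and Gusb was lower (-0.22). Both directions together, these calls made up 17.9% of the genes tested in the list, against 19.3% among all genes. Of these calls only that of Npc2 held in all 6 fits, 1 or 2 higher calls being left with any array but mimic 3 left out, and 9 genes of the list were higher without mimic 3 and inhibitor 1. After quantile normalization 10 lysosome and 7 Wnt genes were higher (background 11.3%). After median centring 9 and 7 were, against 1508 of all 11963 genes. Of 16 early growth, Nr4a and Klf factor genes 5 were lower (background 14.6%) and 1 higher (4.71%). Klf4 was lower (-0.75), with both treatments above the controls (control position -0.57). Klf2 was higher, at 6.22, 6.30 and 6.26 with the mimic, 5.62, 5.88 and 5.67 in the controls and 5.72, 5.83 and 5.71 with the inhibitor, where control and inhibitor arrays overlapped. Lower calls in this list numbered 2 without mimic 1, 3 without inhibitor 1 and 3 without inhibitor 3.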
